A study of Mus musculus with 27 samples.

Results

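The cytochrome P450 genes of families 1 to 4 were followed across mouse hepatocyte organoids, periportal assembloids and freshly isolated hepatocytes. A gene was a member if its symbol in the deposited table was Cyp, a family number from 1 to 4, subfamily letters in lower case and a final number, and 77 of 21848 genes met this rule. Symbols with a letter after the number, such as Cyp3a41a, Cyp3a41b, Cyp4a12a, Cyp4a12b and Cyp4a30b, fell outside it. The measurement was bulk RNA-seq in 27 labelled libraries, 3 for each of 9 conditions, all of C57BL/6 background. HepOrgs, the organoids grown from primary hepatocytes in Matrigel, were taken at passage 2 after 7 days (1 week) or 14 days (2 weeks) in either HM-Wnt or MM. HM-Wnt is the expansion medium, with growth factors (EGF, HGF, FGF7, FGF10), gastrin, nicotinamide, R-spondin 1, the GSK3 inhibitor CHIR and the TGF-beta receptor inhibitor A83-01, whereas MM lacks these, and both contain Wnt conditioned medium and a ROCK inhibitor. Periportal assembloids combined HepOrgs with cholangiocytes and portal mesenchymal cells and were kept in MM for 7 days (1 week) or 18 days (2.5 weeks), with 250 mesenchymal cells in homeostatic and 2500 in fibrotic-like assembloids. All libraries are labelled wild type except replicate 3 of the freshly isolated hepatocytes, whose title says wild type and whose genotype field says heterozygous for MDR2. The labels give neither the sex nor the age of the mice, and do not say whether the libraries of a condition came from separate animals, so p values measure the spread between these libraries, which may be technical.

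Cytochrome P450 enzymes of these families sit in the membrane of the endoplasmic reticulum, bind haem and oxidise drugs, steroids, fatty acids and environmental chemicals with electrons passed on by P450 oxidoreductase. In the liver many of them are zonated, with Cyp2e1 and Cyp1a2 around the central vein and Cyp2f2 around the portal vein, and ligand-activated regulators (the aryl hydrocarbon receptor, CAR, PXR and PPAR alpha) each control their own group. Loss of P450 expression is a known problem of hepatocytes in culture.

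The Cyp1 genes moved in opposite directions between freshly isolated hepatocytes and HepOrgs, so their promoters are shown here. Cyp1a1 and Cyp1a2 are neighbours on opposite strands of the same chromosome (GRCm39, Cyp1a1 at chr9:57595211-57611107 on the plus strand and Cyp1a2 at chr9:57584196-57590986 on the minus strand), and Cyp1b1 lies at chr17:80008966-80022532 on the minus strand. The 300 bases from 250 before to 50 after each start are from RefSeq (GRCm38.p6) and are written 5′ to 3′ on the gene's strand. Capitals mark GCGTG or its reverse complement CACGC, the core letters of the element that the aryl hydrocarbon receptor binds, searched on both strands.
Cyp1a1, chr9:57697363-57697662, plus strand: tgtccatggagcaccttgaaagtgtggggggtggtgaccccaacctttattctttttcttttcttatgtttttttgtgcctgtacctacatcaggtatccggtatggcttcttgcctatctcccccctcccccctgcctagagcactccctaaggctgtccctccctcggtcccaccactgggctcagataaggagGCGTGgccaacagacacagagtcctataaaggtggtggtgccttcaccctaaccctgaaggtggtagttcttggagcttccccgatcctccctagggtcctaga
Cyp1a2, chr9:57683606-57683905, minus strand: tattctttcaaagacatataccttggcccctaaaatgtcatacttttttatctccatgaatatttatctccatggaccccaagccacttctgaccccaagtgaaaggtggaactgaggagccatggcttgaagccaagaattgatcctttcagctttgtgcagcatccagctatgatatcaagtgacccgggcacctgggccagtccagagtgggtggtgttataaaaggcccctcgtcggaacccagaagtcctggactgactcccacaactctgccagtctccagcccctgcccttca
Cyp1b1, chr17:79715012-79715311, minus strand: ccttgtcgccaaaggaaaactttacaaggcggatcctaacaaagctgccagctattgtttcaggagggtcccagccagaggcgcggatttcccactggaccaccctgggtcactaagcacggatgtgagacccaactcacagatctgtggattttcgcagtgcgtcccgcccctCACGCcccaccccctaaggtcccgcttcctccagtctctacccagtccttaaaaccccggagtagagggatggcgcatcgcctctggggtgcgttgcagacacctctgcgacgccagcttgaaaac
In these windows the letters occurred once for Cyp1a1, with the match starting 54 bases before the start, once for Cyp1b1, 76 bases before, and not for Cyp1a2. They occurred in 10639 of 32851 promoters of this length (32.4%) and in 15 of 70 promoters of the 63 members that matched the table, so a match is common and describes these letters only.

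Libraries held 30289364 to 65348596 counts. The P450 genes were read against hepatocyte markers, whose summed TPM was 95104.5 to 123383.4 in freshly isolated hepatocytes and 30136.7 to 87987.0 in HepOrgs, while the endothelial marker sum was 7.36 to 32.8 and 0.0263 to 0.445 TPM. Replicate 2 of the homeostatic assembloids at 1 week stood apart. It had 6625 genes with at least 10 counts, against 11840 to 14162 in the other 26 libraries, 58 of the 77 P450 genes at a count of 0, against 8 to 27, and the lowest hepatocyte marker sum (8630.4 TPM) with the highest mesenchyme marker sum (4562.0 TPM). The tests on assembloids at 1 week are therefore given with and without it. In bulk samples fewer hepatocytes and less RNA per hepatocyte cannot be told apart. The deposited TPM divides by a length that for 69 of the 77 genes is close to the whole gene, exons and introns, so orders between genes are also given as counts per kilobase of coding length, scaled to the library total. Of the 77 genes, 36 share no stretch of 100 bases with another gene whose symbol begins with Cyp, member or not. By contrast, 31.1% of such stretches of Cyp2c69, 28.3% of Cyp2c40, 17.6% of Cyp4a32, 15.6% of Cyp4a10 and 11.2% of Cyp2a4 are also found in another such gene. The counts of these genes are less certain.

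The summed TPM of the 77 P450 genes was highest in freshly isolated hepatocytes, at 18606.3, 15102.4 and 18595.4 in the 3 libraries (17434.7 ± 2020 SD). HM-Wnt HepOrgs reached 3153.9 ± 481 TPM at 1 week and 2496.7 ± 629 at 2 weeks, which were 18.1% and 14.3% of the freshly isolated level. MM HepOrgs reached 3874.7 ± 367 at 1 week (22.2%) and 2846.6 ± 311 at 2 weeks (16.3%). On TMM-normalised counts these 4 levels were lower, at 15.1% and 7.99% in HM-Wnt and 14.3% and 9.27% in MM, so the order of the media at 1 week depended on the scale. No HepOrg library came near the lowest freshly isolated one, and the HM-Wnt and MM ranges overlapped at both times. Homeostatic assembloids at 2.5 weeks stood at 3346.8 ± 475 TPM (19.2%) and fibrotic-like assembloids at 2597.6 ± 1410 (14.9%). Fibrotic-like assembloids at 1 week had 1823.6, 1580.4 and 665.0 TPM, all below each HepOrg library. Homeostatic assembloids at 1 week had 4124.0 and 2718.9 TPM in replicates 1 and 3 and 215.0 in replicate 2. As a mean share of all counts the P450 genes took 3.54% in freshly isolated hepatocytes. In HepOrgs they took 0.649% and 0.404% at 1 week and 2 weeks in HM-Wnt, and 0.660% and 0.418% in MM.

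**Figure D1:**
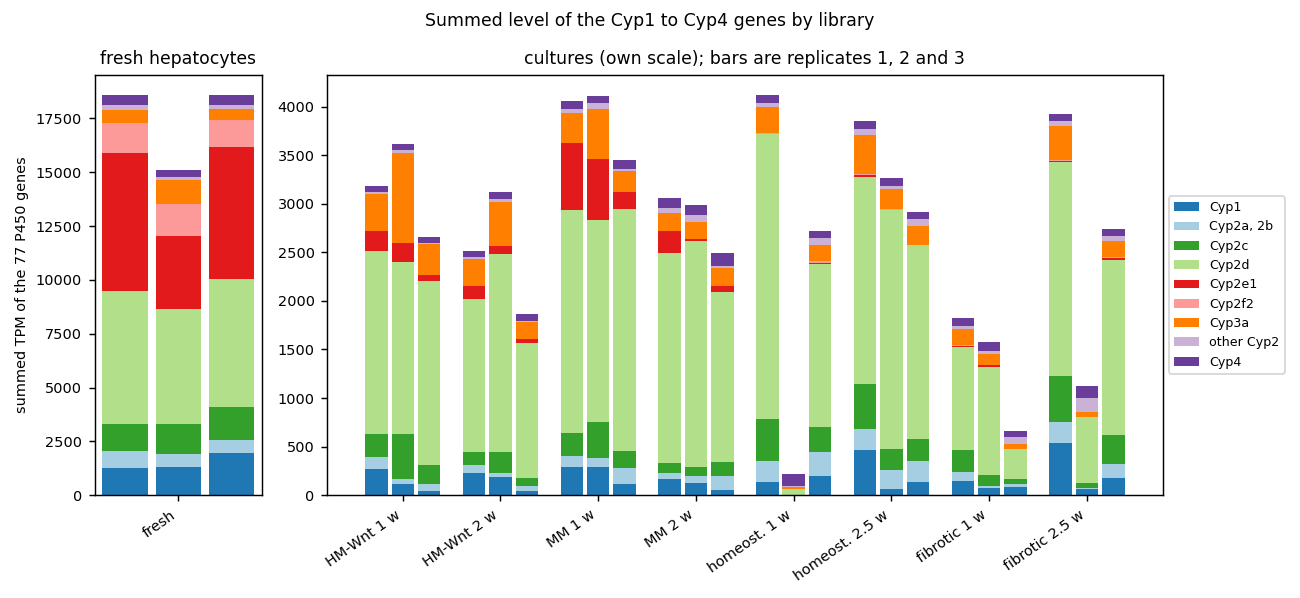
Stacked bars of the summed TPM of the 77 P450 genes in each of the 27 libraries, coloured by subfamily, with freshly isolated hepatocytes and cultures on separate linear scales that both start at 0. The freshly isolated libraries reach 15102.4 to 18606.3 TPM, and replicate 2 of the homeostatic assembloids at 1 week is the shortest bar at 215.0 TPM.

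The makeup of this sum also differed. Cyp2e1, the ethanol-inducible oxidase, was first of the 77 genes in freshly isolated hepatocytes on both scales, with 30.5% of the summed P450 TPM and 26.9% of the summed level per coding kilobase. By TPM the next were Cyp2d10, Cyp2d26, Cyp1a2 and Cyp2f2, and per coding kilobase Cyp2c29, Cyp2f2, Cyp2d9 and Cyp3a11. In every culture condition Cyp2d10 and Cyp2d26 were first and second by TPM. Per coding kilobase the first gene was Cyp3a11 in HM-Wnt HepOrgs at both times, Cyp2d10 in MM HepOrgs at 2 weeks, and Cyp2c29 in MM HepOrgs at 1 week and in all 4 assembloid conditions, so which P450 gene led in culture depended on the length used. In 14 of the 77 genes no fit had enough counts for a test, and their highest count in any of the 27 libraries was 38 (Cyp2j11).

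**Figure D2:**
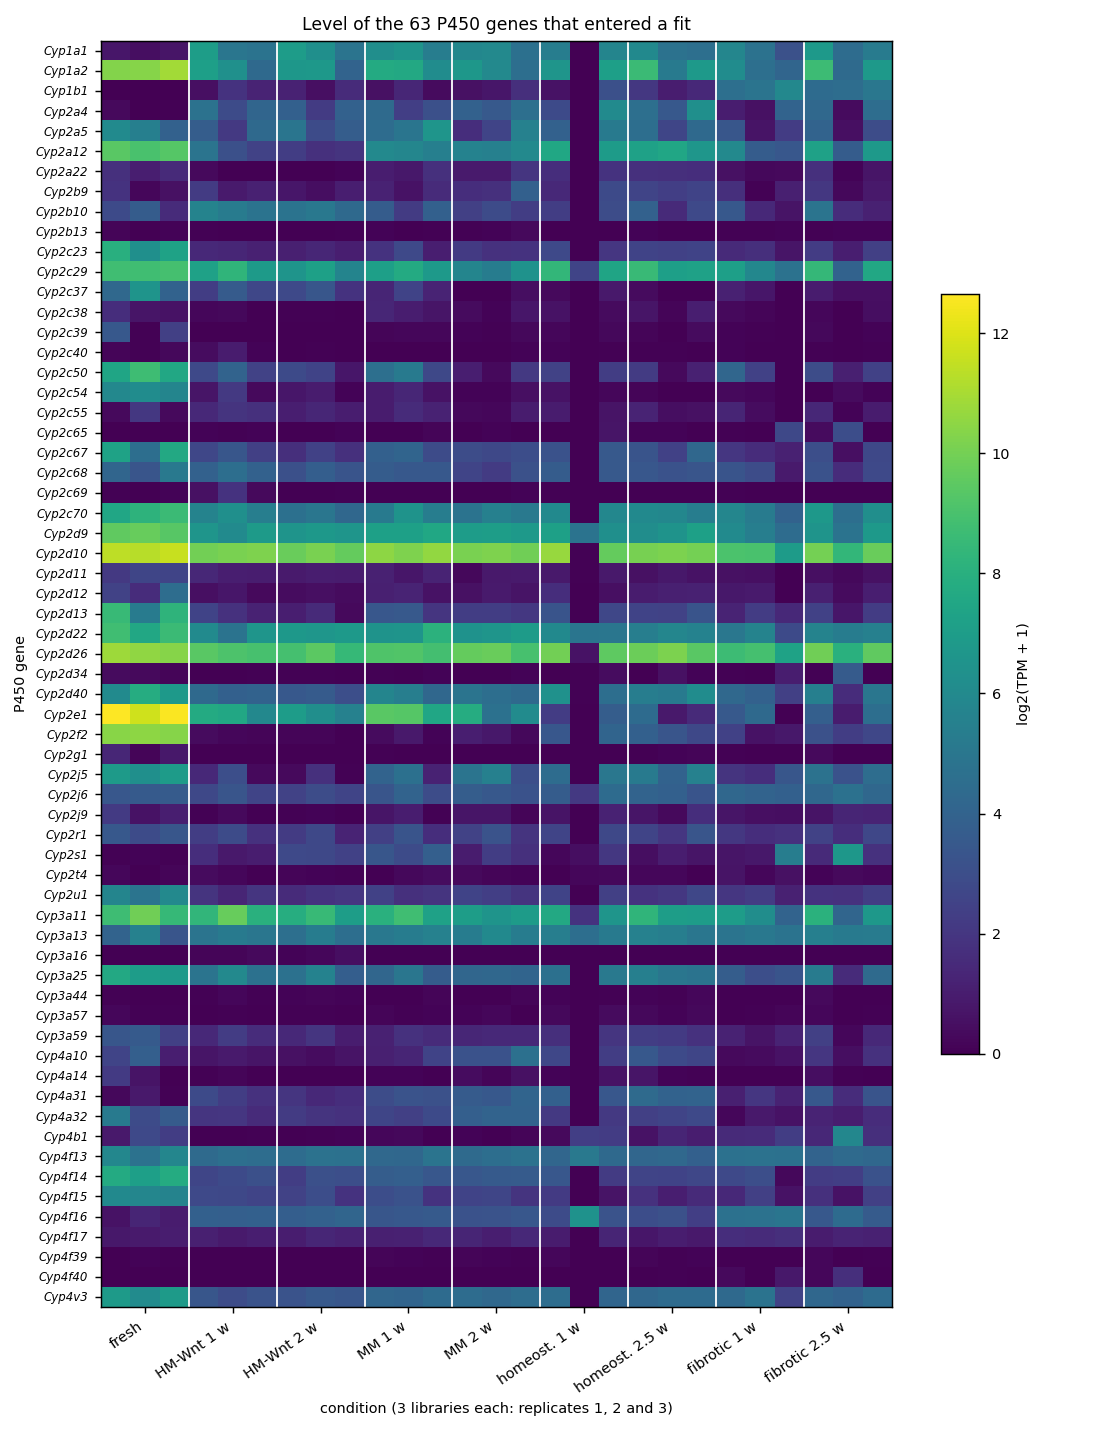
Heat map of log2(TPM + 1) for the 63 P450 genes that entered at least 1 fit (rows) in the 27 libraries (columns, grouped by condition). Most rows are brightest (highest) in the freshly isolated hepatocytes, replicate 2 of the homeostatic assembloids at 1 week is dark (near 0) in nearly every row, and Cyp1a1, Cyp2a4, Cyp2s1 and Cyp4f16 are among the rows that are darker in freshly isolated hepatocytes than in HepOrgs.

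To compare P450 expression in HepOrgs with that of uncultured hepatocytes, each HepOrg condition was compared with freshly isolated hepatocytes in 1 edgeR fit of 15 libraries. A gene is called here when its Benjamini-Hochberg adjusted p over all genes of the fit is under 0.05. The 4 comparisons share the freshly isolated libraries. In HM-Wnt HepOrgs at 1 week, 39 of the 60 P450 genes tested were lower and 10 higher (49 called), where 24.8% of all genes tested were lower, 24.9% higher and 49.7% called. At 2 weeks in HM-Wnt 43 were lower and 7 higher, against 25.7%, 26.1% and 51.8% of all genes for lower, higher and either direction. In MM HepOrgs at 1 week 34 were lower and 7 higher, against 21.3%, 21.5% and 42.8%, and at 2 weeks 31 were lower and 7 higher, against 20%, 19.7% and 39.7%. The median log2 fold change of the tested P450 genes was -2.40, -2.99, -2.13 and -2.30, in the same order, and that of all genes tested lay between -0.01 and 0.03. A gene with enough counts in freshly isolated hepatocytes alone enters the fit only through them and had to be lower, so these shares describe the genes tested and not the 77. Without freshly isolated replicate 3, the library with conflicting genotype labels, 47, 47, 38 and 39 genes were called, and of the genes named here Cyp2b13 and Cyp2j6 (HM-Wnt at 1 week), Cyp4a31 (HM-Wnt at 2 weeks) and Cyp2c69 (MM at 1 week) lost a call.

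Among the Cyp1 genes, which metabolise polycyclic aromatic hydrocarbons and are classic aryl hydrocarbon receptor targets, 2 were higher and 1 lower in all 4 comparisons. Cyp1a1 had 0.714, 0.406 and 0.633 TPM in freshly isolated hepatocytes. It had 131, 30.2 and 27 TPM in HM-Wnt HepOrgs at 1 week and 74.2, 91.6 and 40.3 in MM HepOrgs at 1 week. The lowest of the 12 HepOrg libraries, at 24.2 TPM, was far above the highest freshly isolated one. The log2 fold change was 6.13 ± 0.83 (SE) and 6.25 ± 0.83 in HM-Wnt at 1 week and 2 weeks and 6.29 ± 0.83 and 5.84 ± 0.82 in MM, with adjusted p of 5.71e-05, 4.41e-05, 6.59e-05 and 1.12e-04. Cyp1a2, its neighbour, which oxidises caffeine and aromatic amines, went the other way. Its TPM was 1270.0, 1316.0 and 1937.0 in freshly isolated hepatocytes, against 139, 79.4 and 19.1 in HM-Wnt at 1 week, and 212, 195 and 71.3 in MM at 1 week. All HepOrg libraries lay below all freshly isolated ones, with log2 fold changes of -4.76 ± 0.95, -5.10 ± 0.97, -3.77 ± 0.91 and -5.06 ± 0.96. Cyp1b1, a P450 gene of mesenchymal and other extrahepatic cells, had counts of 1, 0 and 3 in freshly isolated hepatocytes and between 26 and 153 in the 12 HepOrg libraries. It was called higher in all 4 comparisons (adjusted p of 8.15e-04, 0.00165, 0.00338 and 0.00191), with no fold given because its freshly isolated level is at the limit of counting. The mesenchyme marker sum was also higher in HepOrgs (45.9 to 207 TPM) than in freshly isolated hepatocytes (4.19 to 20.9 TPM), but its members did not move alike. By median TPM, Vim, Ly6a, Col1a1 and Col3a1 were higher in all 4 HepOrg conditions. Pdgfra, Pdgfrb and Des were lower in all 4, and Col1a2 and Col6a2 were mixed. The part of mesenchyme in the Cyp1b1 values was not tested.

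**Figure D3:**
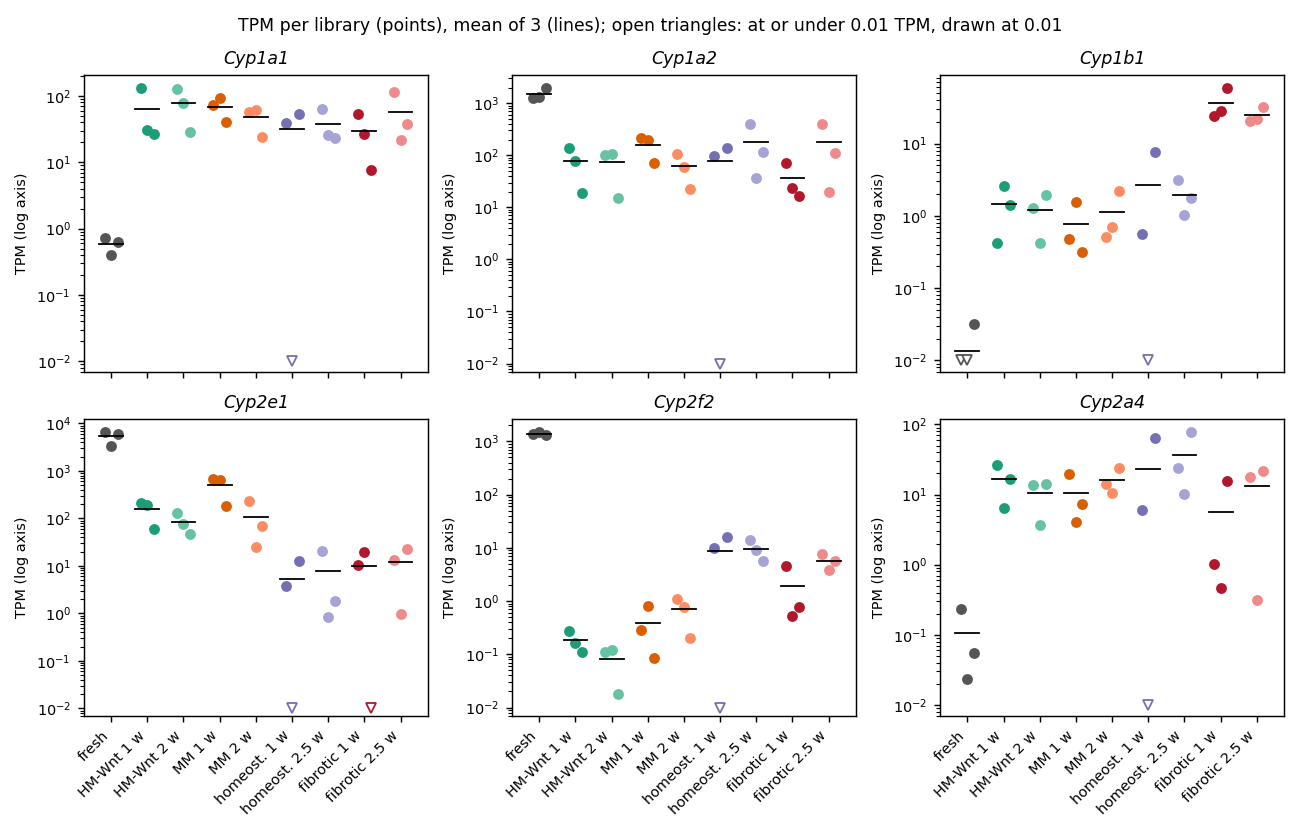
TPM on a log axis of Cyp1a1, Cyp1a2, Cyp1b1, Cyp2e1, Cyp2f2 and Cyp2a4 in the 9 conditions, with 1 point per library, a line at the mean of the 3 libraries and an open triangle for values at or under 0.01 TPM. Cyp1a1, Cyp1b1 and Cyp2a4 sit higher in every HepOrg condition than in freshly isolated hepatocytes, and Cyp1a2, Cyp2e1 and Cyp2f2 sit lower.

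The aryl hydrocarbon receptor gene itself, Ahr, was higher in HepOrgs than in freshly isolated hepatocytes (log2 fold changes of 3.16, 3.59, 2.52 and 2.15, all called). The freshly isolated libraries had 1.70, 3.65 and 3.48 TPM of Ahr, and the HM-Wnt libraries at 1 week 39.5, 34.8 and 40.9. Its partner Arnt (0.05, 0.01, 0.44 and 0.14) and the repressor Ahrr did not pass the test. Whether Ahr bears on the Cyp1 values was not tested.

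Both zonated ends of the lobule were lower. Cyp2f2, the periportal member, had 1361.0, 1476.0 and 1298.0 TPM in freshly isolated hepatocytes, which is 109989 to 150109 counts. Its counts in HepOrgs were 19, 10 and 10 in HM-Wnt at 1 week, 8, 9 and 1 at 2 weeks, 33, 63 and 7 in MM at 1 week and 92, 77 and 14 at 2 weeks. The fall was the largest of the 60 genes tested in each comparison, with log2 fold changes of -13.25 ± 1.07, -14.34 ± 1.11, -12.26 ± 1.03 and -11.36 ± 0.99 (adjusted p between 5.41e-07 and 2.45e-06). Of the 8 pericentral genes, 6 were lower in HM-Wnt HepOrgs at 1 week, 7 at 2 weeks, 6 in MM at 1 week and 7 at 2 weeks, and none was higher. In the same order, 24.8%, 25.7%, 21.3% and 20% of all genes tested were lower and 24.9%, 26.1%, 21.5% and 19.7% higher. Cyp2e1 had 6445.0, 3395.0 and 6114.0 TPM in freshly isolated hepatocytes, against 213, 194 and 58.9 in HM-Wnt at 1 week and 681, 628 and 179 in MM at 1 week. The HepOrg libraries did not reach the freshly isolated range in any condition, with log2 fold changes of -5.57 ± 0.94, -6.77 ± 0.99, -3.93 ± 0.87 and -6.11 ± 0.96. Cyp2a5, the coumarin hydroxylase, was the pericentral gene that was called in none of the 4 comparisons (14.0 to 65.3 TPM in freshly isolated hepatocytes, 2.18 to 95 in HepOrgs), and Cyp3a11 passed the test at 2 weeks only, which is not a test of the difference between times.

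The Cyp2c genes encode drug, retinoid and arachidonic acid oxidases, and 14 of 15 were tested. Between 9 and 11 of them were lower in each comparison, 2 were higher in HM-Wnt at 1 week, none in HM-Wnt at 2 weeks and 1 in MM at each time. For all genes tested the shares were 24.8% and 25.7% lower and 24.9% and 26.1% higher in HM-Wnt. In MM they were 21.3% and 20% lower and 21.5% and 19.7% higher. Cyp2c29, the most abundant per coding kilobase, had 435, 431 and 492 TPM in freshly isolated hepatocytes, against 151, 315 and 119 in HM-Wnt at 1 week and 52.6, 39.0 and 87.4 in MM at 2 weeks. The log2 fold changes of Cyp2c29 were -1.66 ± 0.51, -3.02 ± 0.53, -2.13 ± 0.51 and -3.47 ± 0.54, the smallest of the 4 pericentral Cyp2c genes in each comparison. Cyp2c54 had 59.9, 70.8 and 52.9 TPM in freshly isolated hepatocytes and 0.0753 to 3.33 in the 12 HepOrg libraries, without overlap. It was lower by a log2 fold change of -5.82 ± 1.12, -7.44 ± 1.21, -6.45 ± 1.15 and -8.79 ± 1.29, and Cyp2c50 moved alike (-5.36, -6.87, -4.14 and -8.01). Cyp2c37 ranged widely among the freshly isolated libraries (18.4, 91.9 and 14.6 TPM), and without replicate 2 of them its calls in HM-Wnt were lost (-1.67 in place of -3.11 at 1 week and -2.17 in place of -3.62 at 2 weeks). At 1 week its call was also lost without HM-Wnt replicate 1 (-2.78) or 3 (-2.89). Cyp2c23 (-7.22, -7.74, -6.16 and -6.28), Cyp2c39 (-8.28, -8.20, -5.54 and -5.90), Cyp2c67 and Cyp2c70 were lower in all 4 comparisons.

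The arachidonic acid epoxygenases make vasoactive and anti-inflammatory epoxides. Of the genes listed as such, 6 were tested (Cyp2c29, Cyp2c50, Cyp2c54, Cyp2j5, Cyp2j6 and Cyp2j9). Cyp2c44, also listed, was not found under that symbol and is not counted. Cyp2c29, Cyp2c50 and Cyp2c54 are also among the pericentral genes above. All 6 were lower in HM-Wnt HepOrgs at both times, and 3 of 6 in MM HepOrgs at both times. Among all genes tested, 24.8% and 25.7% were lower in HM-Wnt and 21.3% and 20% in MM. The 3 that did not pass in MM were the Cyp2j genes. Cyp2j5 had 119, 78.5 and 123 TPM in freshly isolated hepatocytes, against 1.72, 7.25 and 0.238 in HM-Wnt at 1 week and 15.5, 24.1 and 1.31 in MM at 1 week. All of these HepOrg libraries lay below the freshly isolated ones, while their own spread was wide, and the log2 fold change in MM at 1 week was -3.47 ± 1.44 (adjusted p = 0.0668).

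All 8 tested Cyp2d genes, relatives of the human debrisoquine hydroxylase, were lower in all 4 comparisons, where 24.8%, 25.7%, 21.3% and 20% of all genes were. Cyp2d10 had 2725.0, 2547.0 and 3114.0 TPM in freshly isolated hepatocytes and between 818.0 and 1542.0 in the 12 HepOrg libraries. The log2 fold changes were -1.88 ± 0.23, -2.38 ± 0.23, -1.63 ± 0.22 and -1.86 ± 0.23. Cyp2d26 fell by a similar amount (-1.91, -2.35, -2.07 and -1.53), Cyp2d9 by more (-3.58, -3.78, -2.89 and -3.14), and Cyp2d13 by the most of these 4 (-6.83, -8.39, -5.40 and -6.45), though its freshly isolated level varied from 37.4 to 374 TPM.

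The sex-biased genes were described as 2 lists, since the labels do not give the sex of the animals. Of the 6 female-biased genes, 3, 2, 1 and 1 were higher and 1, 0, 1 and 0 lower, in the order HM-Wnt at 1 week and 2 weeks and MM at 1 week and 2 weeks. In the same order, 24.9%, 26.1%, 21.5% and 19.7% of all genes were higher and 24.8%, 25.7%, 21.3% and 20% lower. A count of 1 or 2 of 6 is near these shares. Cyp2a4, a steroid 15-alpha-hydroxylase, had counts of 15, 1 and 3 in freshly isolated hepatocytes and reached 26.6, 6.43 and 16.7 TPM in HM-Wnt at 1 week, and its lowest HepOrg library had 159 counts. Its log2 fold changes were 6.29 ± 0.88, 5.38 ± 0.85, 5.67 ± 0.86 and 6.29 ± 0.88 (adjusted p of 7.35e-05, 1.78e-04, 1.92e-04 and 1.08e-04). Cyp2b9 passed the test in none of the 4. Cyp3a16, a fetal and female form, had counts of 0, 1 and 3 in freshly isolated hepatocytes, against 19, 18 and 59 and then 19, 29 and 53 in HM-Wnt at 1 week and 2 weeks, and 0 or 1 in each MM library. Both male-biased genes, Cyp2d9 and Cyp2d10, were lower in all 4 comparisons, as were all 8 tested Cyp2d genes, so this was not particular to male-biased genes.

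The CAR and PXR inducible genes respond to drugs such as phenobarbital. Cyp2b10, the classic CAR target, had 6.13, 11.7 and 1.97 TPM in freshly isolated hepatocytes, against 49.1, 37.4 and 27.2 in HM-Wnt at 1 week and 11.8, 3.60 and 13.7 in MM at 1 week. All HM-Wnt libraries were above the freshly isolated ones and the MM libraries overlapped with them, and the gene was called only in HM-Wnt at 1 week (log2 fold change 1.96 ± 0.59, adjusted p = 0.0147, and 1.15 ± 0.58, adjusted p = 0.112, at 2 weeks). Of the 6 genes, 1, 0, 0 and 0 were higher and 1, 2, 1 and 2 lower. Of all genes 24.9%, 26.1%, 21.5% and 19.7% were higher and 24.8%, 25.7%, 21.3% and 20% lower, so these counts are near or below those shares. On counts Cyp3a13 stayed within a log2 fold change of -0.59 to 0.43, and Cyp2c55 was called in none. The median TPM of Cyp3a13 was 15.2 in freshly isolated hepatocytes, against 29.8 and 23.8 in HM-Wnt and 38.8 and 39.2 in MM. For this gene the scales therefore differed. Cyp3a25, which is no member of that list, was lower in all 4 (-2.36, -3.10, -3.42 and -3.59).

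The PPAR alpha inducible Cyp4a genes encode omega-hydroxylases of fatty acids. Cyp4a31 was higher in all 4 comparisons, with 0.227, 0.840 and 0.0374 TPM in freshly isolated hepatocytes and 11.3, 10.1 and 15.9 in MM HepOrgs at 2 weeks (log2 fold changes of 2.93 ± 0.67, 1.75 ± 0.65, 3.70 ± 0.69 and 4.49 ± 0.71). Cyp4a10, Cyp4a14 and Cyp4a32 were lower in HM-Wnt at both times and in MM at 1 week, and none of the 3 passed the test in MM at 2 weeks. Cyp4a10 had 5.14, 13.1 and 1.10 TPM in freshly isolated hepatocytes, against 0.652, 0.917 and 0.616 in HM-Wnt at 1 week and 8.02, 7.97 and 24.1 in MM at 2 weeks. The HM-Wnt libraries lay wholly below the freshly isolated ones and the MM libraries did not. Leaving out freshly isolated replicate 2 lost the call of Cyp4a10 in MM at 1 week (-1.0 in place of -2.12). So did leaving out MM replicate 1 (-1.84) or 2 (-1.91). The call of Cyp4a14 in HM-Wnt at 1 week (-4.26) was lost without freshly isolated replicate 1 (-2.30) or HM-Wnt replicate 1 (-4.18) or 3 (-3.78). In MM at 1 week (-4.27) its call was lost without freshly isolated replicate 1 (-2.31) or MM replicate 2 (-4.30) or 3 (-3.97). The counts of Cyp4a14 in freshly isolated hepatocytes were 270, 32 and 2. Part of the sequence of Cyp4a10 and Cyp4a32 is shared with other Cyp genes, as given above.

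Of the 6 tested Cyp4f genes, which hydroxylate leukotrienes and other fatty acids, 4 were lower in HM-Wnt at each time and 3 in MM. In every comparison 1 was higher. Cyp4v3, of the Cyp4v subfamily, was lower in all 4 comparisons. Among all genes tested, 24.8%, 25.7%, 21.3% and 20% were lower and 24.9%, 26.1%, 21.5% and 19.7% higher. Cyp4v3 had 119, 68.8 and 120 TPM in freshly isolated hepatocytes and 6.73 to 21.9 TPM in HepOrgs, without overlap (-4.17, -4.25, -3.15 and -2.82, each ± 0.20 or 0.21). Cyp4f14 was lower by -5.43, -5.74, -4.60 and -4.64. Cyp4f16 was the gene that rose, from 0.515, 1.45 and 0.962 TPM to 13.9, 13.2 and 13.6 in HM-Wnt at 1 week, with log2 fold changes of 3.24, 3.04, 2.75 and 2.64 and standard errors of 0.29 or 0.30. Cyp2s1, an extrahepatic form found in epithelia, was also higher throughout (3.66 ± 0.55, 5.42 ± 0.58, 6.41 ± 0.60 and 4.58 ± 0.57), from 5, 7 and 4 counts in freshly isolated hepatocytes. The cholangiocyte marker sum was 28.1 to 104 TPM in HepOrgs and 7.15 to 18.5 TPM in freshly isolated hepatocytes. Its part in the Cyp2s1 values was not tested. Cyp2u1 (-4.84, -5.01, -4.41 and -4.06) and Cyp4b1 (-6.94, -6.75, -5.20 and -5.80) were lower throughout, and Cyp2r1, a vitamin D 25-hydroxylase, passed the test only in HM-Wnt at 2 weeks (-2.03 ± 0.67).

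Of 13 genes that supply P450 enzymes with electrons and haem, 7, 10, 6 and 7 were lower and 1, 1, 1 and 0 higher in the 4 comparisons. Of all genes 24.8%, 25.7%, 21.3% and 20% were lower and 24.9%, 26.1%, 21.5% and 19.7% higher. Cyb5a, cytochrome b5, was lower in all 4 (-1.23, -1.77, -1.29 and -1.18), as was Cpox of the haem pathway (-2.65, -1.84, -2.96 and -2.23). Por, the P450 oxidoreductase, had 56.7, 20 and 19 TPM in the freshly isolated libraries. Its TPM was 18.1, 8.31 and 24.8 in HM-Wnt and 12.4, 18.6 and 36.5 in MM at 1 week, and 32.4, 27.7 and 34.2 in HM-Wnt and 11.2, 10.7 and 18.6 in MM at 2 weeks. On this scale all HepOrg groups but MM at 2 weeks overlapped with freshly isolated hepatocytes, of which replicate 1 was high. On counts the test called Por lower in HM-Wnt at 1 week (-1.47) and in MM at both times (-1.18 and -1.76), and not in HM-Wnt at 2 weeks (-0.83). The gene that was higher, in all but MM at 2 weeks, was Hmox1 (2.24, 2.28 and 2.29), which breaks haem down.

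Among 13 regulators of P450 genes, 7, 8, 4 and 4 were lower and 2 higher in each comparison. In MM these counts are near the shares of all genes (21.3% and 20% lower, 21.5% and 19.7% higher). In HM-Wnt 24.8% and 25.7% of all genes were lower and 24.9% and 26.1% higher. The higher ones were Ahr and Nfe2l2, the oxidative stress regulator. Nr1i3, the gene of CAR, had 53.8, 14.3 and 30.3 TPM in freshly isolated hepatocytes, against 3.61, 1.93 and 2.55 in HM-Wnt at 1 week and 8.51, 11 and 11.7 in MM at 1 week. Nr1i3 was lower in all 4 comparisons (-4.11, -4.16, -2.26 and -3.29), and so were Cebpa (-3.38, -3.02, -3.02 and -2.34) and Ppara (-2.18, -2.85, -1.21 and -1.62). Nr1i2, the gene of PXR, was lower in HM-Wnt (-1.68 and -1.67) and did not pass the test in MM (-0.60 and -0.38).

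The next question was whether withdrawal of the expansion factors changed P450 expression, which was tested in a fit of the 12 HepOrg libraries. At 1 week 3 of the 58 P450 genes tested were higher in MM than in HM-Wnt and 3 lower, where 1.76% and 1.22% of all genes were higher and lower and 2.98% called. At 2 weeks 11 were higher and 3 lower, against 6.84%, 4.61% and 11.5% of all genes. Libraries with the same replicate number deviated together, and with the number as a block 16 genes were called at 1 week (11 higher, 5 lower, against 9.48% of all genes called) and 27 at 2 weeks (24 higher, 3 lower, against 19.6%). The tested P450 genes had a median log2 fold change of 0.49 at 1 week and 0.75 at 2 weeks, and all genes a median of 0.00 and -0.02.

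**Figure D4:**
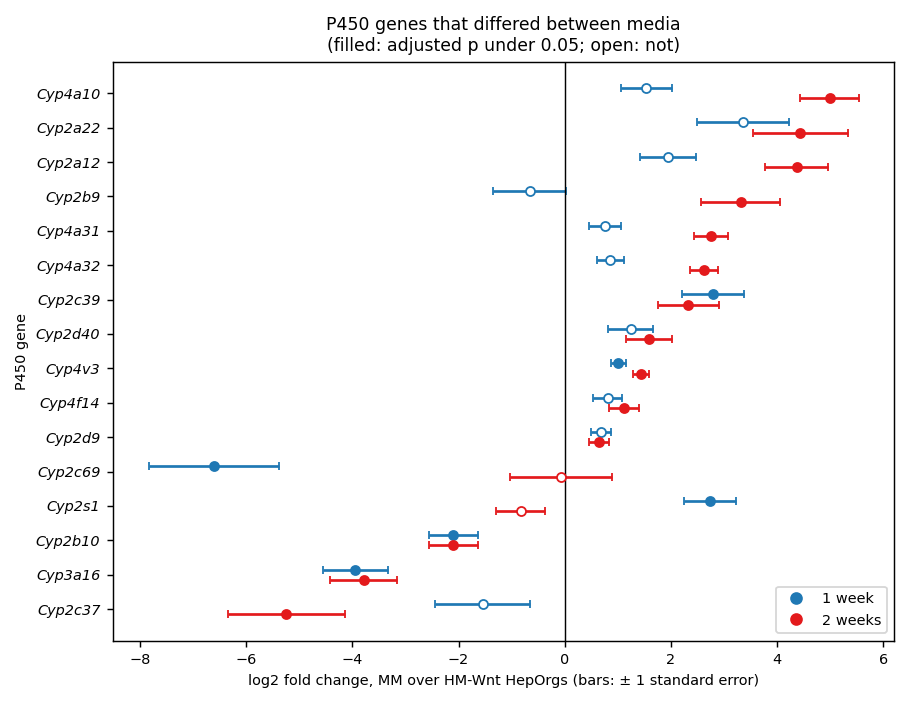
Log2 fold change of MM over HM-Wnt HepOrgs with its standard error (bars) at 1 week and 2 weeks for the 16 P450 genes called at either time, with filled points where the adjusted p was under 0.05. Cyp4v3, Cyp2b10, Cyp2c39 and Cyp3a16 are filled at both times, Cyp4a10 reaches 4.99 at 2 weeks, and the values of Cyp3a16, Cyp2c69 and Cyp2a22 rest on libraries near a count of 0.

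At 2 weeks 3 fatty acid hydroxylase genes of the Cyp4a subfamily were higher in MM. Cyp4a10 had 0.496, 0.356 and 0.607 TPM in HM-Wnt at 2 weeks and 8.02, 7.97 and 24.1 in MM (log2 fold change 4.99 ± 0.55, adjusted p = 7.44e-04). Cyp4a31 had 2.89, 1.76 and 2.11 against 11.3, 10.1 and 15.9 TPM (2.75 ± 0.32, adjusted p = 8.52e-04), and Cyp4a32 had 3.63, 2.7 and 2.44 against 13.1, 15.3 and 15.5 TPM. In all 3 genes every MM library at 2 weeks was above every HM-Wnt library, and all 3 PPAR alpha inducible genes tested were called. At 1 week none of them was called without the block, and with it Cyp4a32 was (0.90, adjusted p = 0.0374). Ppara itself differed by 1.24 on the log2 scale at 2 weeks (adjusted p = 0.0515).

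Cyp4v3 was called at both times, at 9.34, 6.73 and 8.55 TPM in HM-Wnt and 16.9, 15.8 and 20.5 in MM at 1 week (1.01 ± 0.14, adjusted p = 0.00817) and 1.44 ± 0.15 at 2 weeks (adjusted p = 6.85e-04). Cyp2a12, a steroid and bile acid hydroxylase, had 3.86, 2.33 and 2.73 TPM in HM-Wnt at 2 weeks and 47.6, 44.2 and 60.4 in MM (4.37 ± 0.59, adjusted p = 0.00162). At 1 week it was not called (1.95, adjusted p = 0.0652), but was with the replicate block (2.15, adjusted p = 0.0132), by DESeq2, on both log2 TPM scales and without HM-Wnt replicate 1 (3.00). Cyp2j5 at 2 weeks was not called either (5.17 ± 1.66, adjusted p = 0.0657), but was with the block (6.13 ± 0.66, adjusted p = 2.60e-04), by DESeq2, on both log2 TPM scales and without HM-Wnt replicate 2 (7.77), and with the block it was also called at 1 week (2.39, adjusted p = 0.0278). Cyp2s1 was higher in MM at 1 week (2.74 ± 0.49, adjusted p = 0.0203), where MM libraries had 6.30 to 13.3 TPM and HM-Wnt libraries 0.835 to 2.11, and had 0.935 to 3.96 in MM and 4.48 to 5.92 TPM in HM-Wnt at 2 weeks. Cyp2b9 (3.31 ± 0.75, adjusted p = 0.0177), Cyp2d40 (1.59), Cyp4f14 (1.11) and Cyp2d9 (0.65) were also higher in MM at 2 weeks. Cyp2c39 was higher at both times (2.79 ± 0.59 and 2.33 ± 0.57), from counts of 4, 1 and 11 in HM-Wnt and 65, 48 and 60 in MM at 1 week. Several of these calls depended on single libraries. Leaving out any of 5 of the 6 libraries compared ended the calls of Cyp2c39 at 1 week (2.51 to 3.30) and at 2 weeks (1.68 to 2.50), and at 2 weeks those of Cyp2d40 (1.37 to 1.79) and Cyp2d9 (0.53 to 0.77). The call of Cyp4f14 at 2 weeks was lost without any of 4 libraries (HM-Wnt replicates 1 and 3, MM replicates 1 and 2), that of Cyp2s1 at 1 week without HM-Wnt replicate 2 or 3 or MM replicate 1, and that of Cyp2b9 at 2 weeks without HM-Wnt replicate 1 or 2.

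Lower in MM were the CAR target Cyp2b10, Cyp3a16 and, at 1 week, Cyp2c69, and at 2 weeks Cyp2c37. Cyp2b10 had 49.1, 37.4 and 27.2 TPM in HM-Wnt and 11.8, 3.60 and 13.7 in MM at 1 week, and 27.6, 32.1 and 19.1 against 4.32, 6.5 and 3.87 at 2 weeks. The media did not overlap at either time, and the log2 fold change was -2.10 ± 0.46 at both (adjusted p of 0.0360 and 0.0148). Among the regulators, Nr1i3 was higher in MM at 1 week (1.84, adjusted p = 0.0240) and Nr1i2 at both times (1.07, adjusted p = 0.0307, and 1.31, adjusted p = 0.00465). The call of Cyp2b10 at 1 week was lost when any of 5 of the 6 libraries was left out (-2.42 to -1.71), and that at 2 weeks without MM replicate 1 (-2.04). At 1 week Cyp2c69 lost its call without HM-Wnt replicate 2, MM replicate 1 or MM replicate 2, and Cyp3a16 without MM replicate 1. Cyp2c37 had 610, 1035 and 214 counts in HM-Wnt at 2 weeks and 3, 0 and 37 in MM (-5.25 ± 1.10, adjusted p = 0.0126), a call that was lost without MM replicate 1 (-4.84). Of the pericentral genes Cyp2c37 was the only one called in this comparison at 2 weeks. Cyp2e1 was not called at either time, and its direction at 2 weeks rested on replicate 1 of MM (230, 25.4 and 68.8 TPM against 127, 76.4 and 45.9 in HM-Wnt).

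The non-P450 Wnt targets of pericentral hepatocytes gave mixed values at 2 weeks, where 1 of the 5 tested was higher and 3 lower in MM, and at 1 week none was called. Axin2 (-2.29, adjusted p = 0.0184), Lgr5 (-4.43, adjusted p = 0.00115) and Rnf43 (-1.15, adjusted p = 0.0162) were lower in MM, and Glul, glutamine synthetase, was higher (1.18, adjusted p = 0.0466). Ahr was lower in MM at 2 weeks (-1.43, adjusted p = 0.00103), and the Cyp1 genes were called at neither time in edgeR without the block. With it Cyp1a2 was higher in MM at 1 week (1.17, adjusted p = 0.0183).

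Time in culture gave no called P450 gene in edgeR. Between 2 weeks and 1 week 0 of 58 were called in HM-Wnt (0% of all genes, and 13 P450 genes at an unadjusted p under 0.05) and 0 in MM (0.0154% of all genes, and 12). DESeq2 called 3 in HM-Wnt, all lower at 2 weeks (Cyp2a12 by -2.43, Cyp2c40 by -4.46 and Cyp2c69 by -5.50), and 6 in MM. Those 6 were Cyp4a10 (2.59), Cyp2b9 (2.32) and Cyp4a32 (1.64), which were higher at 2 weeks, and Cyp2s1 (-1.82), Cyp2c50 (-3.85) and Cyp2c37 (-4.34), which were lower. Whether the medium effect itself changed between times was tested as an interaction. It gave 0 called in edgeR (0% of all genes, 9 P450 genes at an unadjusted p under 0.05) and 6 in DESeq2. In DESeq2 Cyp4a10 was at 3.52, Cyp2b9 at 4.01, Cyp4a31 at 2.01, Cyp4a32 at 1.77, Cyp2c69 at 7.87 and Cyp2s1 at -3.60. The shares of all genes that DESeq2 called are not given here, so its counts are not read as particular to P450 genes.

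The assembloids ask whether the amount of portal mesenchyme alters the hepatocyte programme. With all 12 libraries, edgeR called 0 of 59 P450 genes between fibrotic-like and homeostatic assembloids at 1 week or at 2.5 weeks, between the times within either kind, or in the interaction (0% of all genes in each, and 4, 2, 1, 2 and 1 P450 genes at an unadjusted p under 0.05). DESeq2 called Cyp4a10 at 1 week, as lower in fibrotic-like assembloids, and 0 in the other 4. Without replicate 2 of the homeostatic assembloids at 1 week, 0 were called in the other 4, and 6 of 62 P450 genes were lower in fibrotic-like assembloids at 1 week and none higher, where 4.87% of all genes were lower and 8.01% called. These were Cyp4a10 (-4.82 ± 0.85, adjusted p = 0.0408), Cyp4a32 (-3.74 ± 0.65, 0.0408), Cyp4a31 (-3.72 ± 0.80, 0.0442), Cyp2j5 (-3.65 ± 0.75, 0.0431), Cyp2f2 (-3.59 ± 0.90, 0.0471) and Cyp3a13 (-1.47 ± 0.38, 0.0474). The homeostatic group then has 2 libraries. With all libraries the values of these 6 genes, in the same order, were -4.23, -3.15, -3.14, -3.07, -3.01 and -1.10 (adjusted p between 0.321 and 0.460). For comparisons that this library has no part in, leaving it out was chosen after seeing the data.

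Cyp4a10 had 5.49 and 3.97 TPM in these 2 homeostatic libraries, 0 in the one left out, and 0.230, 0.281 and 0.557 in the fibrotic-like ones. Cyp2j5 had 21.5 and 31.8 against 2.73, 2.11 and 9.48 TPM. Cyp2f2 had 10.0 and 16.0 against 4.49, 0.515 and 0.775 TPM. The groups did not overlap in any of these genes once that library was left out. The genes were picked by their calls without it, so this adds no support to those calls. The mesenchyme marker sum was 1482.5 to 2929.0 TPM in fibrotic-like assembloids at 1 week and 56.6 and 306 TPM in these homeostatic libraries, and the hepatocyte marker sum was 13875.0 to 62941.8 against 61316.5 and 101993.9 TPM; their part in the P450 values was not tested.

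**Figure D5:**
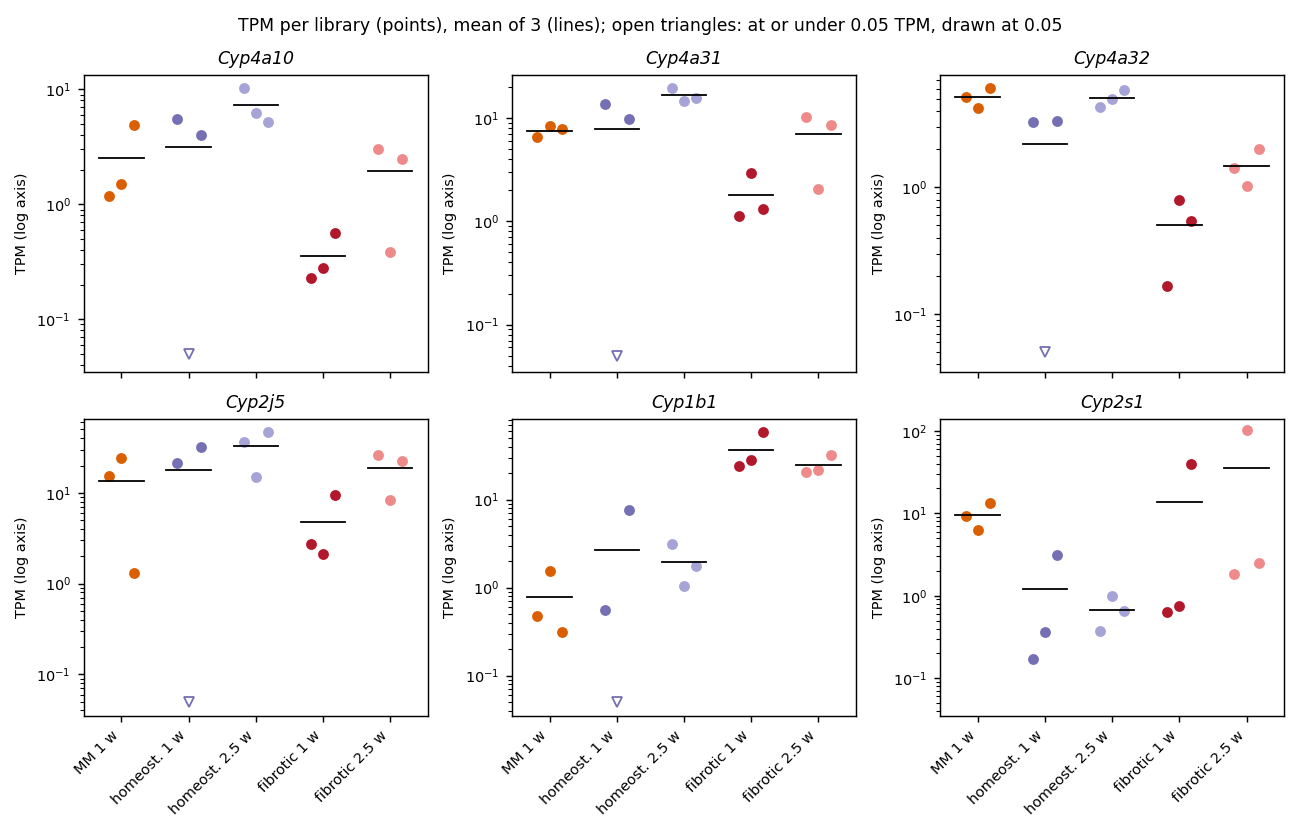
TPM on a log axis of Cyp4a10, Cyp4a31, Cyp4a32, Cyp2j5, Cyp1b1 and Cyp2s1 in MM HepOrgs at 1 week and in the 4 assembloid conditions, with 1 point per library, a line at the mean and an open triangle at or under 0.05 TPM. Replicate 2 of the homeostatic assembloids at 1 week gives the triangles of that group, Cyp1b1 is above 20 TPM in all 6 fibrotic-like libraries, and Cyp2s1 has a single high library in each fibrotic-like group.

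Cyp1b1 ran the other way. It had 23.8, 28.1 and 58.3 TPM in fibrotic-like assembloids at 1 week and 20.4, 21.9 and 31.8 at 2.5 weeks, against 0.553, 0 and 7.53 and 3.09, 1.03 and 1.75 in homeostatic ones. All fibrotic-like libraries were above all homeostatic ones at both times, as was their mesenchyme marker sum at 2.5 weeks (525 to 2903.8 against 78.9 to 138 TPM). In edgeR Cyp1b1 was called at neither time, with a log2 fold change of 2.92 ± 1.49 at 1 week (adjusted p = 0.405) and, without the library that stands apart, 2.33 ± 0.81 at 1 week (adjusted p = 0.0837) and 3.14 ± 0.72 at 2.5 weeks (adjusted p = 0.0706). On log2(TPM + 1) with all libraries limma called it at 1 week (3.89). Cyp2s1 had 0.630, 0.742 and 39.6 TPM in fibrotic-like assembloids at 1 week and 1.83, 102 and 2.50 at 2.5 weeks. The high libraries, replicate 3 at 1 week and replicate 2 at 2.5 weeks, were also those with the highest cholangiocyte marker sums (4928.3 and 4121.0 TPM, against 296 to 853 in the other fibrotic-like libraries). In the same libraries Cyp2c65 had 805 and 923 counts, against 1 to 63 in the other 4, and the lowest summed P450 TPM of their groups was found (665.0 and 1124.5).

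Assembloids at 1 week were compared with MM HepOrgs, also labelled 1 week. The paper describes assembly in MM, in some cases after HepOrg culture in MM, so the total time in MM may differ. In edgeR 0 of 57 P450 genes were called for both kinds (0% of all genes in each, with 2 and 8 P450 genes at an unadjusted p under 0.05). DESeq2 called Cyp4b1 as higher in homeostatic and Cyp2e1 and Cyp2d22 as lower in fibrotic-like assembloids. Cyp2f2 had counts of 33, 63 and 7 in MM HepOrgs and 960, 0 and 1643 in homeostatic assembloids, and its log2 fold change was 4.38 ± 2.18 (adjusted p = 0.717), and without replicate 2 it was 4.98 ± 1.23 (adjusted p = 0.357). Cyp2e1 had 681, 628 and 179 TPM in MM HepOrgs at 1 week and 3.72, 0 and 12.4 in homeostatic assembloids. The groups did not overlap, and the log2 fold change was -6.69 ± 2.62 (adjusted p = 0.684), or -6.10 ± 2.16 without replicate 2 (adjusted p = 0.428), where again 0 P450 genes were called for homeostatic assembloids.

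With that library left out of the fit, although it is in neither group, 17 of 60 P450 genes were called between fibrotic-like assembloids and MM HepOrgs at 1 week, 16 lower and 1 higher, where 10.3% of all genes were lower and 22.9% called. Cyp1b1 was the higher one (4.47, adjusted p = 0.0198, against 4.46 and 0.439 with all libraries). The lower ones included Cyp2e1 (-6.46, adjusted p = 0.0412, against -6.45 and 0.418), Cyp4a32 (-4.24, adjusted p = 0.0109), Cyp4a10 (-3.63, adjusted p = 0.0120), Cyp2a5 (-4.15), Cyp1a2 (-2.99), Cyp2d9 (-2.7), Cyp2d10 (-2.59) and Cyp3a25 (-2.01). Fibrotic-like assembloids hold more mesenchyme by design, so a smaller share of hepatocyte RNA and less P450 RNA per hepatocyte cannot be told apart here.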

How the data were processed

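The authors made Smart-seq2 libraries, used STAR for alignment to GRCm39 and featureCounts for the count per gene. Whole-number counts and the authors' TPM values were used as deposited. Of 37 libraries in the table, the 27 whose titles name a condition were used and 10 were not. The 2 reporter rows (eGFP and tdTomato) are no mouse genes and are in no count of genes here, though they entered the fits.

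Tests were run with edgeR 4.0.16 in R 4.3.3 by its quasi-likelihood method. Genes were filtered with filterByExpr (at least 10 counts in enough libraries, 15 in total), scaled by TMM and fitted with a prior count of 2, and p values were adjusted by Benjamini-Hochberg over every gene of the fit. Fits held 15 libraries (HepOrgs and freshly isolated hepatocytes), 12 HepOrg, 12 assembloid, and 9 libraries at 7 days in MM. Fold changes are log2, with their standard errors. Alternatives were DESeq2 1.42.0, RLE size factors, no filter, limma 3.58.1 on log2(TPM + 1) and log2(TPM + 0.1) with at least 1 TPM in 3 libraries, a joint fit of all 27 libraries, a block for the replicate number, and each library left out in turn. The scripts were tested on simulated counts. In HepOrgs 18 of 18 pairs of libraries with the same replicate number had correlated deviations above 0.1 (0.127 to 0.503), although no label explains these numbers.

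The genes and the gene lists were chosen with earlier results of these data known. Genes named are the 20 members with the highest mean TPM, all members of the role lists, and up to 3 highest and 3 lowest log2 fold changes among called members of each comparison whose average log2 CPM was 2 or more. Genes named outside this rule, such as Cyp2c65, Cyp2u1 and Cyp4b1, were chosen after their values were seen.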

Additional observations from a re-analysis of the deposited data

How the results depend on the processing

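Against freshly isolated hepatocytes, the counts of called P450 genes (49, 50, 41 and 38) stayed within 1.5 times under all alternatives except 1 fit of all 27 libraries, which gave 28 for HM-Wnt and 17 for MM at 1 week, and leaving out single libraries gave 44 to 49, 46 to 51, 38 to 44 and 37 to 42. The log2 TPM scales moved the median of all genes by 0.40 to 0.86, and the P450 medians on log2(TPM + 1) were -1.55, -1.62, -1.32 and -1.73. Between media, DESeq2 gave 16 at 1 week and 25 at 2 weeks, the replicate block 16 and 27, all 27 libraries 0 and 0, and leaving out single libraries 1 to 8 and 8 to 18. The count at 1 week fell to 2 without HM-Wnt replicate 2, 3 without HM-Wnt replicate 3, 1 without MM replicate 1 and 3 without MM replicate 2, and at 2 weeks to 8 without replicate 1 of either medium. For 2 weeks against 1 week, DESeq2 gave 3 in HM-Wnt and 6 in MM, log2(TPM + 1) gave 1 in MM, and leaving out libraries 0 to 1, while the interaction gave 6 in DESeq2. For fibrotic-like against homeostatic assembloids at 1 week, DESeq2 and log2(TPM + 1) gave 1 each and leaving out libraries 0 to 6, with 6 without homeostatic replicate 2. Homeostatic assembloids against MM HepOrgs gave 1 in DESeq2. Fibrotic-like assembloids against MM HepOrgs gave 2 in DESeq2, 2 on log2(TPM + 1), 4 with all 27 libraries and 0 to 17 when libraries were left out. In the other fits not every pair of same-numbered libraries had correlated deviations above 0.1 (19 of 30 with freshly isolated hepatocytes, with a median of 0.159, against 7 of 60 pairs with different numbers, and 6 of 18 and 2 of 9 with assembloids), and there the replicate block gave 51, 50, 45 and 42 against freshly isolated hepatocytes and 0 in assembloids.

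The summed P450 level as a percent of freshly isolated hepatocytes was lower on TMM-normalised counts, at 15.1, 7.99, 14.3 and 9.27% in HM-Wnt and MM HepOrgs at 1 week and 2 weeks, 13.8% in homeostatic assembloids at 2.5 weeks and 3.08% in fibrotic-like assembloids at 1 week, and per coding length it was 18.4% and 11.6% in MM at 1 week and 2 weeks. Leaving out libraries gave 16.8 to 19.5, 12.5 to 16.1, 20.8 to 23.4 and 15.3 to 17.4% in HepOrgs, and 8.41 to 19.6, 17.7 to 20.4, 6.44 to 9.76 and 11.1 to 19.1% in assembloids. Of 2255 alternative values of single genes, 2062 kept their direction and call, 164 lost the call, 26 gained it and 3 reversed. The reversed ones were all Cyp2e1 between media at 2 weeks, at -0.04 and -0.05 on log2(TPM + 1) and log2(TPM + 0.1) and -0.63 without MM replicate 1 (-0.63 to 1.14 over the libraries left out, 0.68 with all). Leaving out a library also ended the calls against freshly isolated hepatocytes of Cyp2b13, Cyp2c29, Cyp2j6, Cyp2j9 and Cyp2c69 in HM-Wnt at 1 week, of Cyp2r1, Cyp3a11 and Cyp4a31 in HM-Wnt at 2 weeks and of Cyp2c69 in MM at 1 week. Cyp2c69 was at 2.10 in place of 3.94 without HM-Wnt replicate 2. The cause of these changes was not tested. Depth limits the 14 genes that entered no fit.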
